A study of Mus musculus with 12 samples.

Results

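The insulin-like growth factor (IGF) genes described here are 10 of the 24490 genes listed for these samples: the ligands Igf1 and Igf2, the receptors Igf1r and Igf2r, and the binding proteins Igfbp2, Igfbp3, Igfbp4, Igfbp5, Igfbp6 and Igfbp7. They were chosen from the expression values of the same samples, with their levels in the 3 preparations in view, and each was found by its symbol in 1 row. Their levels are therefore given as a description, without a test. RNA was sequenced from the dorsal root ganglia (DRG) of adult male C57Bl/6 mice in 3 preparations with 4 samples each. Intact samples held whole, snap-frozen ganglia of 1 mouse each. Unsorted samples held acutely dissociated ganglia pooled from 2 mice each. MACS-sorted samples held dissociated cells pooled from 8 mice each, after magnetic-activated cell sorting, in which non-neuronal cells were labelled with antibodies and held back on a magnetic column. The labels name no transgene and no treatment besides the preparation. Expression is in FPKM, mapped fragments scaled to transcript length and to the sample's total, which can be compared between genes because it is per length. From the spacing of low values, the depth was estimated at between 16100000 and 19200000 fragments for intact, 15600000 and 18200000 for unsorted, and 13500000 and 17100000 for MACS-sorted samples.

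IGF-1 and IGF-2 are secreted peptides related to insulin that act through the IGF-1 receptor, a tyrosine kinase whose signal passes through adaptor proteins to the PI3K-Akt-mTOR and Ras-MAPK pathways. The IGF-2 receptor has no kinase of that type; it carries IGF-2 and proteins tagged with mannose 6-phosphate to the lysosome. Binding proteins in the extracellular fluid hold the ligands and set how much of them is free, and in peripheral nerve and ganglia the ligands are known as growth and survival factors for neurons and Schwann cells.

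Some libraries stood apart, and their values bear on several of these genes. Intact replicate 1 held skeletal muscle RNA: the summed level of 6 muscle markers was 2410 FPKM there, against 53.7, 13.3 and 14.8 FPKM in intact replicates 2 to 4, and Mylpf, the most abundant of them, reached 700 FPKM. It also differed over many other genes. Over 3267 genes with a mean above 20 FPKM, its median absolute log2 difference from replicates 2 to 4 was 0.293 to 0.336. Among intact replicates 2 to 4 that difference was 0.0658 to 0.0839. The part of muscle RNA in this was not tested. Unsorted replicates 1 and 2 were the most alike of all pairs within a group. Over genes with 2048 to 4096 fragments by the depth estimate, the squared difference of this pair was 1.52-fold that of sampling noise, and that of the other 17 pairs 5.55-fold to 184-fold. This does not show whether they came from separate animals; the labels give them as 2 samples, and they were kept so. Unsorted replicates 3 and 4 had less RNA of meningeal and connective tissue genes and more of early-response genes than replicates 1 and 2. MACS-sorted replicate 2 was low in endothelial markers, and MACS-sorted replicate 4 was the highest of its group in satellite glia, fibroblast and meningeal markers.

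The marker lists put figures on these differences. The 6 meningeal markers summed to 383 to 633 FPKM in intact samples, to 121, 123, 6.73 and 8.85 FPKM in unsorted replicates 1 to 4, and to 2.91, 0.937, 2.36 and 12.7 FPKM in MACS-sorted replicates 1 to 4. Ptgds was their most abundant gene, and Aldh1a2, Slc22a6 and Slc47a1 were below 0.5 FPKM in all 4 MACS-sorted samples, while Slc22a6 was so in the unsorted samples too. The 7 fibroblast markers, led by Dcn, summed to 946, 541, 592 and 499 FPKM in intact replicates 1 to 4, to 340, 330, 169 and 224 FPKM in unsorted and to 7.62, 8.01, 14.0 and 32.5 FPKM in MACS-sorted replicates, where Fbln1 was below 0.5 FPKM throughout. Thus connective tissue RNA was most abundant in intact DRG and was low, though not at 0, after sorting. The 7 satellite glia markers, led by Apoe, summed to 1763 to 2093 FPKM in intact, 2258 to 2838 FPKM in unsorted and 90.0 to 203 FPKM in MACS-sorted samples. After sorting, most of that sum came from Glul, at 82.3 to 111 FPKM, while Apoe was at 5.44 to 65.1 FPKM, with Slc1a3 and Kcnj10 below 0.5 FPKM in every MACS-sorted sample. Endothelial RNA went another way. The 6 endothelial markers, led by Cldn5, summed to 22.0, 20.2, 22.6 and 23.7 FPKM in intact, to 50.5, 49.98, 38.2 and 44.8 FPKM in unsorted and to 50.4, 11.4, 44.0 and 68.1 FPKM in MACS-sorted replicates 1 to 4, with none of them under 0.5 FPKM throughout a group.

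Among the other lists, the 8 pericyte and smooth muscle markers summed to 69.3 to 88.0 FPKM in intact, 58.0 to 76.0 FPKM in unsorted and, after sorting, 55.9, 90.7, 80.4 and 125 FPKM in replicates 1 to 4. Most of the MACS-sorted sum came from Rgs5, and Myh11, Des, Kcnj8, Abcc9 and Notch3 were below 0.5 FPKM in those 4 samples. The 7 macrophage markers, led by C1qb, summed to 32.4 to 66.1 FPKM in intact, 10.3 to 21.0 FPKM in unsorted and 0.697 to 2.82 FPKM in MACS-sorted samples, where Csf1r, Cx3cr1, C1qa and C1qb stayed below 0.5 FPKM. The 6 red blood cell genes, led by Hbb-bs, summed to 1667, 2525, 12524 and 15312 FPKM in replicates 1 to 4 of the MACS-sorted group and to at most 736 FPKM elsewhere, with Hba-a1 listed at 0 in all 12 samples. The 6 dissociation response genes, led by Fos, summed to 43.5 to 52.3 FPKM in intact, to 180, 186, 506 and 732 FPKM in unsorted replicates 1 to 4 and to 111 to 195 FPKM in MACS-sorted samples. Muscle markers summed to at most 7.15 FPKM outside the intact group, and Myh4 and Myh1 in unsorted and Ckm, Myh4, Tnnt3 and Myh1 in MACS-sorted samples were below 0.5 FPKM throughout. Neuronal RNA was abundant in all 3 preparations: the 8 pan-neuronal markers, led by Uchl1, summed to 3537 to 3769 FPKM in intact, 4223 to 4554 FPKM in unsorted and 3815 to 4902 FPKM in MACS-sorted samples. The 8 nociceptor markers, led by Calca, summed to 1580 to 2325, 1702 to 1773 and 1584 to 2389 FPKM in the same order. Calca weighed most in that sum: in intact replicate 1 it was at 1815 FPKM while 6 of the 8 markers were the lowest of their group there, and 5 of the 8 had all MACS-sorted samples above the unsorted range although the sums overlapped. The 6 markers of large-diameter neurons, led by Nefh, summed to 558 to 754, 793 to 989 and 78.2 to 152 FPKM. The highest intact sum, in replicate 1, came with Pvalb at 441 FPKM, against 61.8 to 67.8 FPKM in replicates 2 to 4, while the other 5 markers were the lowest of their group.

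Both ligand genes were highest in intact DRG, intermediate in unsorted and close to 0 in MACS-sorted samples. Igf2, which encodes a ligand of both IGF receptors (chromosome 7 of mm10, minus strand, 142650768 to 142661035), was at 56.1, 30.7, 41.8 and 39.9 FPKM in intact replicates 1 to 4. In unsorted replicates 1 to 4 it was at 17.9, 18.4, 3.29 and 5.77 FPKM, and after sorting at 0.0824, 0.0713, 0.114 and 0.884 FPKM in replicates 1 to 4. No sample of one preparation overlapped another. The log2 ratio of group mean FPKM was −1.89 for unsorted over intact and −5.30 for MACS-sorted over unsorted samples. The last value rested on MACS-sorted replicate 4, without which it was −6.99, and in the other 3 sorted samples Igf2 was at a level worth few fragments, since 1 fragment on 1000 bases of effective transcript length stood for 0.0586 to 0.0742 FPKM in that group. As in every bulk sample, fewer cells of a type and less RNA per cell cannot be told apart in these levels. Within the unsorted group, Igf2 was several-fold higher in replicates 1 and 2 than in 3 and 4, in the same samples in which the meningeal and fibroblast sums were higher. Other sums had the same split: those of macrophage, red blood cell, satellite glia, endothelial, pericyte and smooth muscle, and nociceptor markers. The macrophage sum, for example, was 21.0, 19.5, 10.3 and 12.7 FPKM in unsorted replicates 1 to 4. The part of any of these cells in the Igf2 level was not tested.

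Igf1, the ligand best known as the mediator of growth hormone action (chromosome 10, plus strand, 87859056 to 87937047), was less abundant than Igf2 in every intact and unsorted sample, though not in MACS-sorted replicate 3. It was at 4.32, 4.77, 5.54 and 4.58 FPKM in intact replicates 1 to 4 and at 2.18, 2.01, 0.772 and 1.39 FPKM in unsorted replicates 1 to 4. In MACS-sorted samples it was listed at 0 in replicate 1 and at 0.0367, 0.183 and 0.168 FPKM in replicates 2 to 4. Again the 3 preparations did not overlap, with log2 ratios of −1.60 for unsorted over intact and −4.03 for MACS-sorted over unsorted samples. Because 1 sorted sample was listed at 0 and the others were near the level of single fragments, the size of the last ratio is poorly determined. Unlike Igf2, Igf1 was not raised in intact replicate 1, which was the lowest of its group. Igf2 made up 86.6% to 92.8% of the summed FPKM of the 2 ligands in intact and 80.6% to 90.2% in unsorted samples.

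**Figure D1:**
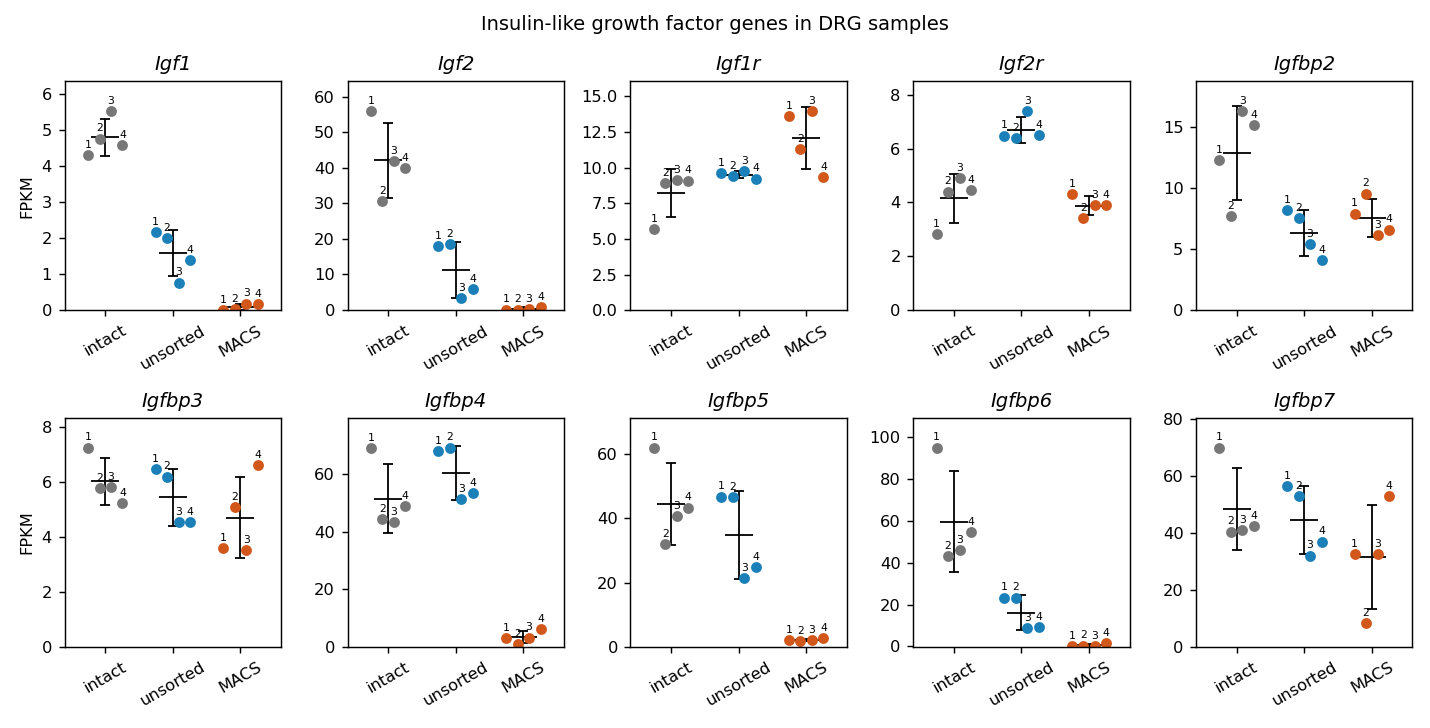
FPKM of the 10 IGF genes in each sample, with coloured points numbered by replicate and black bars giving the mean and SD of the 4 samples of a preparation. Igf2 lay between 30.7 and 56.1 FPKM in intact and below 1 FPKM in MACS-sorted samples, whereas Igf1r lay between 9.34 and 14.0 FPKM after sorting; each panel has its own linear scale.

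Both receptor genes were at 2.83 FPKM or more in all 12 samples. Igf1r, which encodes the signalling receptor (chromosome 7, plus strand, 67952257 to 68233667), was at 5.72, 8.93, 9.16 and 9.09 FPKM in intact replicates 1 to 4 and at 9.60, 9.44, 9.79 and 9.24 FPKM in unsorted replicates 1 to 4. In MACS-sorted replicates 1 to 4 it was at 13.6, 11.3, 14.0 and 9.34 FPKM. All unsorted and all MACS-sorted samples lay above all intact samples, but the step from intact was narrow, and without intact replicate 1 the log2 ratio of unsorted over intact was 0.07 in place of 0.21. MACS-sorted replicates 1 to 3 lay above every unsorted sample, while replicate 4 fell inside the unsorted range, so that those groups overlapped at a log2 ratio of 0.34. They did not overlap without that replicate, where the ratio was 0.45, or with any of the 3 other scalings. With quantile normalization or with haemoglobin genes removed, unsorted and intact samples overlapped. Igf1r was the only member besides Igfbp2 whose mean was higher in MACS-sorted than in unsorted samples under the deposited scaling; with quantile normalization Igfbp3 joined them at a ratio of 0.02.

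Igf2r, which encodes the lysosomal sorting receptor (chromosome 17, minus strand, 12682406 to 12769706), was instead highest in unsorted samples. It was at 2.83, 4.40, 4.91 and 4.46 FPKM in intact, 6.48, 6.39, 7.39 and 6.50 FPKM in unsorted and, after sorting, 4.31, 3.42, 3.91 and 3.89 FPKM in replicates 1 to 4. Every unsorted sample lay above every intact and every MACS-sorted sample, with log2 ratios of 0.69 for unsorted over intact and −0.78 for MACS-sorted over unsorted samples. Intact and MACS-sorted samples overlapped, at a log2 ratio of −0.10 that changed sign to 0.24 with quantile normalization. Airn, an RNA from the opposite strand that overlaps Igf2r, was at 2.96 to 6.71 FPKM in intact, 2.25 to 2.74 FPKM in unsorted and 0.763 to 1.25 FPKM in MACS-sorted samples. Airn was thus highest where Igf2r was not, although fragments from the overlapping stretch cannot be told apart unless strand was used in the counting. The libraries were made with a directional kit, but whether the counting used strand was not stated.

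The 6 binding protein genes fell into genes that were low after sorting and genes that were not. Igfbp4, which encodes a soluble binding protein that blocks IGF action (chromosome 11, plus strand, 99041260 to 99052643), was at 68.9, 44.5, 43.4 and 48.9 FPKM in intact and at 67.9, 69.1, 51.3 and 53.3 FPKM in unsorted replicates 1 to 4. In MACS-sorted replicates 1 to 4 it was at 3.08, 1.07, 3.26 and 6.14 FPKM. Intact and unsorted samples overlapped, at a log2 ratio of 0.23. Without intact replicate 1 they did not overlap, and the ratio was 0.41. Every MACS-sorted sample lay far below both groups, at a log2 ratio of −4.16 over unsorted samples. The highest sorted value, in replicate 4, was in the sample with the highest satellite glia, fibroblast, meningeal, macrophage, endothelial and pericyte marker sums of that group, whose part in it was not tested. Without that replicate the ratio was −4.61.

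Igfbp5, which encodes a binding protein that also attaches to extracellular matrix (chromosome 1, minus strand, 72858065 to 72874865), was at 62.0, 32.0, 40.7 and 43.4 FPKM in intact replicates 1 to 4. It was at 46.8, 46.6, 21.4 and 24.7 FPKM in unsorted and after sorting at 2.13, 1.72, 2.13 and 2.74 FPKM in replicates 1 to 4. The unsorted samples again split into higher replicates 1 and 2 and lower replicates 3 and 4, and as a group they overlapped intact samples. After sorting the 4 samples were close together and low, at a log2 ratio of −4.00 over unsorted samples. The log2 ratio of unsorted over intact samples was −0.35, and −0.15 without intact replicate 1.

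Igfbp6, which encodes a binding protein that prefers IGF-2 to IGF-1 (chromosome 15, plus strand, 102144186 to 102149512), was at 94.8, 43.2, 45.8 and 54.5 FPKM in intact replicates 1 to 4, where its mean was the highest of the 10 genes. It was at 23.3, 23.3, 8.86 and 9.15 FPKM in unsorted replicates 1 to 4. In MACS-sorted samples it was listed at 0 in replicate 1 and at 0.399, 0.0523 and 1.60 FPKM in replicates 2 to 4. Of the binding protein genes, Igfbp6 alone had 3 preparations that did not overlap, the same order as its preferred ligand. Its log2 ratios were −1.88 for unsorted over intact and −4.98 for MACS-sorted over unsorted samples, the latter −6.74 without MACS-sorted replicate 4. Like Igf2, it was higher in unsorted replicates 1 and 2 and in intact replicate 1, the samples with the larger fibroblast sums of their groups. Intact replicate 1 was also the highest of its group in skeletal muscle and macrophage sums, at 2410 and 66.1 FPKM. The meningeal, macrophage, red blood cell, satellite glia, pericyte and smooth muscle, and nociceptor sums were likewise higher in those unsorted and intact samples. The share of these cells in the Igfbp6 level was not tested.

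Igfbp2, Igfbp3 and Igfbp7 remained measurable after sorting at levels that overlapped those of unsorted samples. Igfbp2, which encodes a binding protein with a cell-surface integrin-binding motif (chromosome 1, plus strand, 72824480 to 72852471), was at 12.3, 7.69, 16.3 and 15.1 FPKM in intact, 8.16, 7.55, 5.41 and 4.09 FPKM in unsorted and, after sorting, 7.91, 9.54, 6.11 and 6.59 FPKM in replicates 1 to 4. Intact samples were the highest apart from replicate 2, which lay within the range of the other preparations. The log2 ratio of unsorted over intact samples was −1.03 and that of MACS-sorted over unsorted samples 0.26. MACS-sorted replicate 2, the lowest of its group for Igfbp4, Igfbp5 and Igfbp7, was the highest for Igfbp2, and without it the latter ratio was 0.13.

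Igfbp3, which encodes the main carrier of IGFs in blood (chromosome 11, minus strand, 7206091 to 7213923), was at 7.26, 5.79, 5.84 and 5.25 FPKM in intact, 6.48, 6.21, 4.56 and 4.56 FPKM in unsorted and, after sorting, 3.59, 5.11, 3.52 and 6.64 FPKM in replicates 1 to 4. All 3 preparations overlapped, with log2 ratios of −0.15 for unsorted over intact and −0.21 for MACS-sorted over unsorted samples, and the latter turned to 0.02 with quantile normalization. These differences were smaller than the SD of the unsorted group. The log2 ratio of MACS-sorted over intact samples was −0.36.

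Igfbp7, which encodes a secreted protein that binds IGFs weakly and is known from blood vessels (chromosome 5, minus strand, 77349240 to 77408045), was at 70.0, 40.5, 41.0 and 42.3 FPKM in intact and 56.5, 52.9, 32.0 and 37.0 FPKM in unsorted replicates 1 to 4. In MACS-sorted replicates 1 to 4 it was at 32.5, 8.43, 32.6 and 52.9 FPKM, the widest spread of the 10 genes in FPKM within that group. All 3 preparations overlapped. The low sample, replicate 2, and the high sample, replicate 4, were also the lowest and the highest in the endothelial marker sum, at 11.4 and 68.1 FPKM, and in Cldn5, at 4.55 and 34.1 FPKM. The match was not particular to endothelial markers. The satellite glia sum, at 90.0 and 203 FPKM, and the meningeal sum, at 0.937 and 12.7 FPKM, were lowest and highest in the same samples. Between preparations it was otherwise: the mean endothelial sum was 22.1 FPKM in intact and 45.9 FPKM in unsorted samples, where mean Igfbp7 was 48.4 and 44.6 FPKM, and intact replicate 1, the highest for Igfbp7, had an endothelial sum of 22.0 FPKM. The part of endothelial or other non-neuronal RNA in the Igfbp7 level was not tested. The log2 ratio of Igfbp7 for MACS-sorted over unsorted samples was −0.50. It was −0.18 without MACS-sorted replicate 2 and −0.87 without MACS-sorted replicate 4. The log2 ratio of unsorted over intact samples was −0.12 and changed sign to 0.11 without intact replicate 1.

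Together the 6 binding protein genes summed to 315, 174, 193 and 209 FPKM in intact, 209, 206, 124 and 133 FPKM in unsorted and, after sorting, 49.2, 26.3, 47.6 and 76.6 FPKM in replicates 1 to 4. Their shares of that sum also differed between preparations. Igfbp4, Igfbp5, Igfbp6 and Igfbp7 each made up between 18.4% and 30.1% of the sum in intact samples. In unsorted samples Igfbp4 took the largest share, 32.5% to 41.5%, and Igfbp6 had 6.89% to 11.3%. In MACS-sorted replicates 1, 3 and 4 Igfbp7 took 66.0%, 68.4% and 69.1%, whereas in replicate 2 Igfbp2 led with 36.3%, followed by Igfbp7 with 32.1%.

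**Figure D2:**
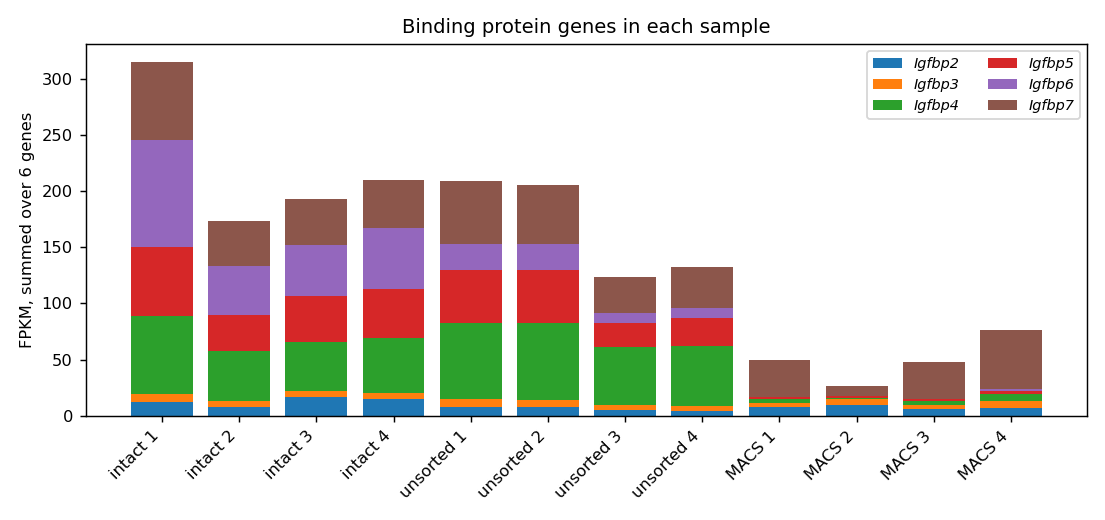
Summed FPKM of the 6 binding protein genes in each sample (vertical axis), stacked by gene, for 4 intact, 4 unsorted and 4 MACS-sorted (MACS) samples. The sum ran from 174 to 315 FPKM in intact and from 26.3 to 76.6 FPKM in MACS-sorted samples, with Igfbp7 the largest piece in 3 of the latter.

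Ranked by mean FPKM, the order of the 10 genes in intact DRG was Igfbp6, Igfbp4, Igfbp7, Igfbp5, Igf2, Igfbp2, Igf1r, Igfbp3, Igf1 and Igf2r. Only the step from Igf2 to Igfbp2 separated neighbours whose samples did not overlap. In unsorted samples the order was Igfbp4, Igfbp7, Igfbp5, Igfbp6, Igf2, Igf1r, Igf2r, Igfbp2, Igfbp3 and Igf1, with steps free of overlap from Igf1r to Igf2r and from Igfbp3 to Igf1. In MACS-sorted samples it was Igfbp7, Igf1r, Igfbp2, Igfbp3, Igf2r, Igfbp4, Igfbp5, Igfbp6, Igf2 and Igf1, and only Igfbp5 and Igfbp6 did not overlap as neighbours. Igf1r therefore moved from rank 7 to rank 2 among these genes, and Igfbp6 from rank 1 to rank 8. Among all 24490 genes, the mean of Igf1r stood at rank 6554 in intact and 4881 in MACS-sorted samples, and that of Igfbp6 at rank 980 and 12451.

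Between MACS-sorted and unsorted samples, 9 of the 10 genes had a mean of at least 1 FPKM and entered the fit over all genes, Igf1 being the exception. Called genes had to pass 3 criteria: limma's adjusted p-value below 0.05, group means whose log2 ratio was past 0.5 up or down, and more than 5 FPKM on average in whichever group was higher. As a description and not as a test of these genes, 5 of the 9 met them as lower in MACS-sorted samples, where 12.5% of the 12038 genes tested were, and 0 were higher, where 8.15% of all genes were. Between unsorted and intact samples, where all 10 entered the fit, 3 met the criteria as lower beside 2.76% of the 12392 genes tested, and 1 as higher beside 4.29%. The count lower was 2 with the replicate block or a fit on all 12 samples and 1 without unsorted replicate 4, and the count higher was 0 with haemoglobin genes removed. In terms of groups that did not overlap, 5 of the 9 were lower and 0 higher in MACS-sorted than in unsorted samples, beside 27.8% and 18.4% of all genes. With size factors, with quantile normalization, with haemoglobin genes removed or without MACS-sorted replicate 4, 1 was higher, which was Igf1r. For unsorted against intact samples 3 of the 10 were lower and 2 higher, beside 12% and 20.8%, with 1 higher after quantile normalization and 4 lower and 1 higher with haemoglobin genes removed. Without intact replicate 1, 3 were higher, and without intact replicate 2 or unsorted replicate 1, 4 were lower. For MACS-sorted against intact samples 5 of the 10 were lower and 1 higher, beside 21.9% and 15.6%. The comparisons share samples, and since the members were chosen from these values, nothing is read from the counts.

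The genes whose pattern over the 12 samples was most like that of each member were found by Pearson r of log2(FPKM + 0.1) among 12282 other genes. The samples form 3 groups, so r mostly reflects differences between preparations, and it is given as a description. For Igf2 the 3 nearest genes were Col8a2, F13a1 and Fn1 with r of 0.996, 0.996 and 0.994. For Igf1 they were Itgbl1, Fbln1 and Fmod, with r of 0.990, 0.985 and 0.985. For Igfbp6 they were Islr, Smoc2 and Prelp, with r of 0.991, 0.990 and 0.990. For Igfbp4 they were Mmp14, Gpr37l1 and Antxr1, with r of 0.998, 0.996 and 0.996, and for Igfbp5 Gas1, Samd4 and Dpt, with r of 0.997, 0.994 and 0.993.

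The remaining members had weaker or different neighbours. For Igfbp7 the nearest genes were Tm4sf1, Srgn and Cdk2, with r of 0.968, 0.953 and 0.952. For Igf1r they were Setd1b, Galnt5 and Ncoa2, with r of 0.981, 0.974 and 0.969, and for Igf2r Trio, Ganab and Trappc11, with r of 0.986, 0.981 and 0.975. For Igfbp3 they were Gltp, Thoc6 and Ifnar2, with r of 0.941, 0.924 and 0.907. Igfbp2 had no close neighbour: its highest values were 0.876 for Psmc3, 0.834 for Prg4 and 0.831 for Plekhg3. The choice of neighbours was not stable: of 60 values of r recomputed with a pseudocount of 1 or without intact replicate 1, 23 moved by more than the SD over samples left out in turn. With the larger pseudocount Dpt went to rank 413 and Gas1 to rank 33 for Igfbp5, Fbln1 to 25 for Igf1, F13a1 to 15 for Igf2 and Cdk2 to 13 for Igfbp7. Without intact replicate 1, Ncoa2 went to rank 35 and Galnt5 to 16 for Igf1r, Plekhg3 to 24 and Prg4 to 13 for Igfbp2, Cdk2 to 13 and Srgn to 11 for Igfbp7, and Antxr1 to 11 for Igfbp4.

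Igfbp2 and Igfbp5 are neighbours on chromosome 1. They end tail to tail, with a gap of 5593 bases between them in mm10, and yet Igfbp5 was low in MACS-sorted samples while Igfbp2 was not. Polr2b, on the other strand, overlaps the end of Igfbp7. The 250 bases before the transcript start of Igfbp2 and Igfbp5, and of Igfbp6 and Igfbp7, which were at the low and the high end of the binding protein genes after sorting, are shown to set genes with different levels side by side. They come from RefSeq on GRCm38.p6, the same build as mm10, which held 14 such windows for the 10 members. Windows lie at chr1:72824230-72824479 (plus strand) for Igfbp2, chr1:72874866-72875115 (minus strand) for Igfbp5, chr15:102143936-102144185 (plus strand) for Igfbp6 and chr5:77408046-77408295 (minus strand) for Igfbp7. Each is given 5′ to 3′ on the gene's strand, and capitals mark matches to 3 motifs: the sequence TATAAA, the sequence CCAAT and the sequence GGGCGG, each searched on both strands.
Igfbp2: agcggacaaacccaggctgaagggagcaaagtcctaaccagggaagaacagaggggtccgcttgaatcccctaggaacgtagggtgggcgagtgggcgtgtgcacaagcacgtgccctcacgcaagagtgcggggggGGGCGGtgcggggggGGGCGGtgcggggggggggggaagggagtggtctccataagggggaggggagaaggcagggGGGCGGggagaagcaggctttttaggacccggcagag
Igfbp5: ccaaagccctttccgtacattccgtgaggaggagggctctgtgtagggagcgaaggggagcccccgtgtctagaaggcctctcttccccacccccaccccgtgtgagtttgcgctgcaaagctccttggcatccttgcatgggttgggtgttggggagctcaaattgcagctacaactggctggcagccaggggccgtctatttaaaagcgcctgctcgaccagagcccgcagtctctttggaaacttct
Igfbp6: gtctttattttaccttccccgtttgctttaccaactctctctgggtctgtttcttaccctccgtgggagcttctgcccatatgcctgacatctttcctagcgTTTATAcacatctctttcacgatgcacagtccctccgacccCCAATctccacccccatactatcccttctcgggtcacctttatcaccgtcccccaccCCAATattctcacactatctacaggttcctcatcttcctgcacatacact
Igfbp7: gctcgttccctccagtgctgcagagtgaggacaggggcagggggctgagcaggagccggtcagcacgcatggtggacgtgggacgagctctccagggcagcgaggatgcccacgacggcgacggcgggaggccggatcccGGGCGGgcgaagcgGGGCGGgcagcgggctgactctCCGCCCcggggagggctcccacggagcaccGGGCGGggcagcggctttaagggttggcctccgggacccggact
The window shown for Igfbp2 held 3 matches to GGGCGG and that of Igfbp7 held 4, whereas Igfbp6 held 1 match to TATAAA and 2 to CCAAT, and Igfbp5 held 0 of the 3 motifs. Igfbp2 had another window, at chr1:72825137-72825386, with 0 matches and 56.4% G and C bases. Over all 32851 windows of this length in the table, 12.4% held TATAAA, 33.8% held CCAAT and 32.7% held GGGCGG. The share of G and C bases was 67.2% for the Igfbp2 window shown, 58.8% for Igfbp5, 49.6% for Igfbp6 and 74.0% for Igfbp7, beside a median of 52.4% over all windows. Windows of other members did not follow the contrast of those shown. The Igfbp3 window held 0 matches to GGGCGG at 73.2% G and C bases, although Igfbp3 was not low after sorting. The windows of Igf2, which was close to 0 after sorting, held 0, 0, 1 and 2 matches to GGGCGG. The Igfbp4 window, of a gene low after sorting, held 0 at 69.2% G and C bases. A match describes letters only, and no binding was measured.

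Of the other genes of the IGF pathway, a list of 69 was examined, 54 of which were tested in each comparison. Between MACS-sorted and unsorted samples 3 rose and 6 fell, 5.56% and 11.1% of those tested beside 8.15% and 12.5% of all genes, and the median log2 fold change on the log2(FPKM + 0.1) scale was −0.06 beside −0.04 over all genes. Between unsorted and intact samples 4 rose and 1 fell, 7.41% and 1.85% beside 4.29% and 2.76%, with a median of 0.13 beside 0.01. Leaving out MACS-sorted replicate 4 raised the first count from 3 to 5, and that of all genes from 981 to 1019. Of the 4 that rose from intact to unsorted samples, 1 was called without intact replicate 1 or 4 or without unsorted replicate 1, 3 or 4, and 2 were without unsorted replicate 2, while 2 fell without intact replicate 1. The background itself depended on the scaling: 39.5% of the called genes were higher in MACS-sorted than in unsorted samples as deposited and 51.8% with quantile normalization, which moved the median of all genes from −0.04 to 0.10. For unsorted against intact samples the share was 60.8% as deposited, 50.8% with quantile normalization and 44.6% with haemoglobin genes removed.

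Htra1, a secreted protease that cleaves IGF binding proteins, was the pathway gene with the smallest adjusted p-value in both comparisons. It was at 34.3, 38.4, 41.9 and 39.2 FPKM in intact, 59.1, 56.4, 66.5 and 57.6 FPKM in unsorted and, after sorting, 11.2, 7.44, 9.29 and 9.70 FPKM in replicates 1 to 4. No samples of different preparations overlapped. It fell by 2.67 on the log2(FPKM + 0.1) scale from unsorted to MACS-sorted samples (limma adjusted p = 3.9e-07, standard error 0.12) and was 0.64 higher in unsorted than in intact samples (limma adjusted p = 0.0027, standard error 0.084). The satellite glia, large-diameter neuron, pan-neuronal, endothelial and dissociation response sums were likewise higher in every unsorted than in every intact sample. Within the MACS-sorted group Htra1 was highest in replicate 1 and lowest in replicate 2, as was the large-diameter sum, at 152 and 78.2 FPKM. The satellite glia, endothelial, meningeal and dissociation response sums were also lowest in replicate 2, but were highest in replicate 4. The part of these cells, or of the dissociation response, in the Htra1 level was not tested. Pappa, another protease of binding proteins, was at 0.724 to 1.25 FPKM in intact, 1.22 to 1.51 FPKM in unsorted and 0.259 to 0.496 FPKM in MACS-sorted samples and was too low to be tested between the last 2 groups.

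Among 9 genes listed as receptor adaptors, Shc1 rose from 35.5 ± 1.72 FPKM in unsorted to 59.6 ± 5.90 FPKM in MACS-sorted samples (SD, n = 4 each; log2 fold change 0.74, limma adjusted p = 6.6e-05, standard error 0.081). The inhibitory adaptor gene Grb10 fell from 8.78 ± 1.01 to 4.65 ± 1.14 FPKM (SD, n = 4 each; log2 fold change −0.92, limma adjusted p = 0.0012, standard error 0.16). Irs2, a docking protein of the receptor, fell from 8.38 ± 1.38 to 4.40 ± 0.937 FPKM (SD, n = 4 each; log2 fold change −0.93, limma adjusted p = 0.0021, standard error 0.18). For all 3 genes no MACS-sorted sample overlapped an unsorted one, and the call held with any 1 sample left out. The adaptor genes Irs1 and Irs3 did not overlap either but were not called, since their means were below 5 FPKM. Irs1 was at 1.81 FPKM in unsorted and 0.261 FPKM in MACS-sorted samples (log2 fold change −2.51, limma adjusted p = 3.1e-04). Irs3 was at 0.745 and 2.12 FPKM in the same order (log2 fold change 1.36, limma adjusted p = 0.0014).

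Of 25 genes of the PI3K-Akt-mTOR branch, 2 rose and 3 fell in MACS-sorted samples, beside 8.15% and 12.5% of all genes. Foxo3, a transcription factor restrained by Akt, had a log2 fold change of 0.56 (limma adjusted p = 0.0012, standard error 0.098). Foxo1, a factor of the same family, fell from 5.36 ± 0.803 to 0.815 ± 0.426 FPKM (SD, n = 4 each; log2 fold change −2.76, limma adjusted p = 5.2e-04, standard error 0.42). Foxo4 had a log2 fold change of −0.73 (limma adjusted p = 0.0023, standard error 0.14), and Pik3r3, a regulatory subunit of PI3K, of −0.63 (limma adjusted p = 1.3e-04, standard error 0.077). Of the Foxo genes called, Foxo3 thus rose and the other 2 fell. Foxo4 was not called with quantile normalization. All 9 Ras-MAPK genes and all 7 genes of mannose 6-phosphate sorting were tested and none was called in either comparison. Between unsorted and intact samples 4.29% of all genes rose and 2.76% fell. With shares of this size nothing is read from lists this short.

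The unsorted samples also serve in the comparison with intact samples, where the genes that rose besides Htra1 were Mtor, Tsc2 and Irs2. Mtor, the kinase of the growth-promoting complexes, went from 10.5 ± 2.52 to 16.03 ± 1.65 FPKM (SD, n = 4 each; log2 fold change 0.64, limma adjusted p = 0.034, standard error 0.18), with intact replicate 1 at 6.73 FPKM. Tsc2, which restrains that kinase, and Irs2 had log2 fold changes of 0.56 (limma adjusted p = 0.032, standard error 0.15) and 0.65 (limma adjusted p = 0.048, standard error 0.20). These 3 calls were not firm: with 1 sample left out at a time, Mtor and Tsc2 were called in 2 of 8 fits each and Irs2 in 1 of 8, and the adjusted p-values reached 0.092, 0.088 and 0.12. Tsc2 and Irs2 were highest in unsorted replicates 3 and 4, as was the dissociation response sum. The large-diameter neuron sum had the same split, at 803, 793, 989 and 929 FPKM in unsorted replicates 1 to 4. The part of that response or of those neurons in the Tsc2 and Irs2 levels was not tested. H19, a noncoding RNA that neighbours Igf2 and is imprinted with it, fell from 60.3, 14.7, 16.02 and 15.8 FPKM in intact to 5.29, 5.37, 1.81 and 2.00 FPKM in unsorted replicates 1 to 4 (log2 fold change −2.73, limma adjusted p = 0.0093, standard error 0.53). H19 thus split the unsorted samples as Igf2 did, was highest in intact replicate 1, and was listed at 0 in MACS-sorted replicates 1 to 3 and at 0.0833 FPKM in replicate 4.

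**Figure D3:**
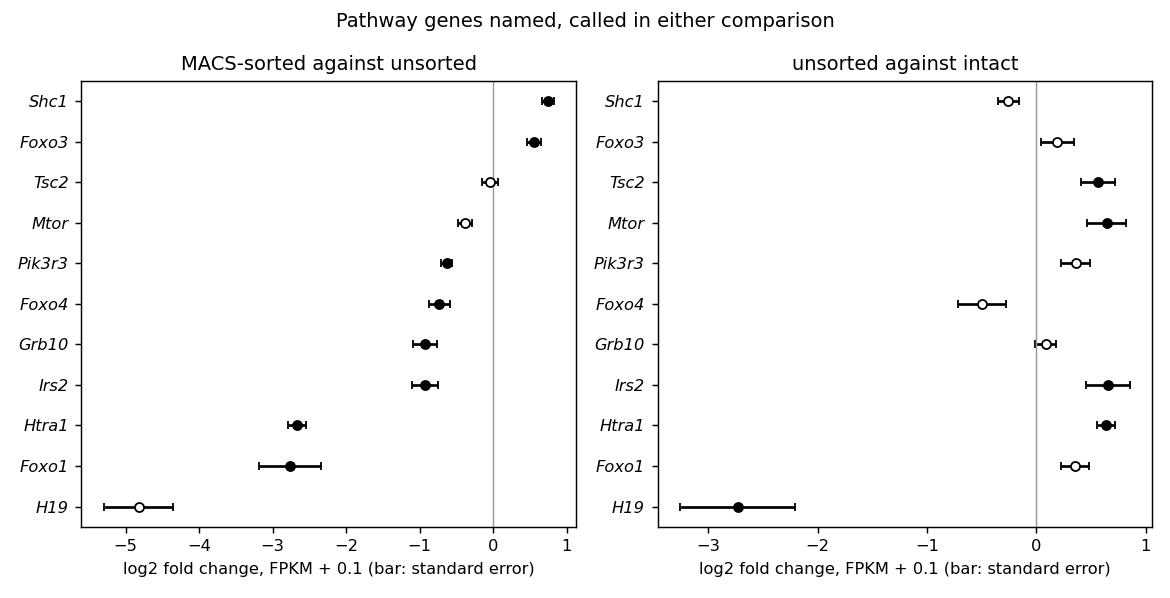
Log2 fold changes on the log2(FPKM + 0.1) scale (horizontal axis) with standard errors (bars) for 11 pathway genes called in either comparison, from limma on 4 samples against 4. Filled points passed all criteria and open points did not; Htra1 fell by 2.67 with sorting and was 0.64 higher in unsorted than in intact samples, and H19 was not called in the left panel because its unsorted mean was below 5 FPKM.

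Several genes of the list had low values or a listed 0. Ins1, Irs4 and Igf2os, an RNA antisense to Igf2, were listed at 0 in all 12 samples. A listed 0 is not read as no expression, since Hba-a1 was also at 0 while the red blood cell sum reached 15312 FPKM, and Igf2os overlaps Igf2. Igfbp1, Igfals, Igfbpl1, Ins2, Stc1, Stc2, Igf2bp1 and Igf2bp3 were below 0.5 FPKM in every sample, among them Igfals, which encodes the acid-labile subunit that carries IGFs in blood. Insrr, Pappa2 and Igf2bp2 were also too low to be tested in either comparison, and Irs3 was tested only between MACS-sorted and unsorted samples and Pappa only between unsorted and intact samples. Igf2bp2, which encodes an Igf2 mRNA-binding protein, was at 0.612 to 0.802 FPKM in intact and unsorted samples and at most 0.269 FPKM in MACS-sorted samples.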

How the data were processed

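The deposited values are FPKM that the authors estimated with Cufflinks 2.1.1 after TopHat2 alignment to mm10 and merging with SAMtools. Gene starts count from 0 and were shifted by 1. All 12 samples were used.

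limma 3.58.1 under R 4.3.3 was fitted, two-sided and with an intensity trend, to log2(FPKM + 0.1) of the 8 samples compared, with Benjamini-Hochberg adjustment over genes averaging 1 FPKM or more there. It replaced CuffDiff, which needs aligned reads, and was tested on simulated data. No label pairs samples, and p-values reflect the spread between these samples. Depth was estimated from the spacing of low FPKM values of genes with 1 transcript, assuming fragments of 150 bases.

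Members and lists were chosen with earlier results of these data known. The rule for names took all members, pathway genes called, not tested or listed at 0, the 3 genes most like each member, each marker list's most abundant gene, and markers below 0.5 FPKM in all samples of a group. Airn and Polr2b, which overlap members, and Glul, Pvalb and Irs1 were added after values were seen. Some genes and 1 marker list have no results given, but stay in every count.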

Additional observations from a re-analysis of the deposited data

Results flagged for a closer look

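Within groups of 4 samples, 15 of 99 groups examined held a value far from the other 3. Chance passes the limit used in about 1 in 20. The tally is not compared with that rate, because members were chosen from these values and the groups share samples. Genes and lists without results given were left out of this tally. The values that stood apart comprised 4 of 30 for the members, 5 of 33 for the pathway genes named and 6 of 36 for the summed markers, and 8 of the 15 lay in intact replicate 1. Among the members, Igf1r was at 5.72 FPKM in intact replicate 1 against 8.93 to 9.16 FPKM in the others, and Igfbp7 at 70.0 FPKM against 40.5 to 42.3 FPKM. Igf2r was at 7.39 FPKM in unsorted replicate 3 against 6.39 to 6.50 FPKM, and Igf2 at 0.884 FPKM in MACS-sorted replicate 4 against 0.0713 to 0.114 FPKM.

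Among the pathway genes, Mtor was low in intact replicate 1, at 6.73 FPKM, while Foxo4 and H19 were high there, at 12.8 and 60.3 FPKM. Mtor was high in unsorted replicate 3, at 18.5 FPKM, as Igf2r was, and H19 was at 0.0833 FPKM in MACS-sorted replicate 4 and listed at 0 in the other 3, where any value above 0 would have stood apart. Of the summed markers, intact replicate 1 was high for skeletal muscle at 2410 FPKM, macrophages at 66.1 FPKM and nociceptors at 2325 FPKM, of which Calca made up 1815 FPKM. MACS-sorted replicate 4 was high for the meningeal list at 12.7 FPKM and for macrophages at 2.82 FPKM. Unsorted replicate 3 was high for skeletal muscle, at 7.15 FPKM against 0.711 to 0.798 FPKM.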

How the results depend on the processing

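Of 380 log2 ratios of members recomputed under alternatives, 371 moved by less than the spread between replicates, 4 moved by more and 5 changed sign. No sign changed in a comparison whose groups did not overlap. The sign changes were Igf2r between MACS-sorted and intact samples (0.24) and Igfbp3 between MACS-sorted and unsorted samples (0.016) with quantile normalization, and Igfbp7 between unsorted and intact samples with medians in place of means (0.11), without intact replicate 1 (0.11) and without unsorted replicate 3 (0.01). For Igfbp7 the range with 1 sample left out was −0.25 to 0.11. For MACS-sorted against unsorted samples, the pathway genes higher numbered 5 in place of 3 with median-ratio size factors, with quantile normalization and with haemoglobin genes removed. The count over all genes rose as well, from 981 to 1188, 1382 and 1136 in the same order. A log2 ratio limit of 1 left 0 pathway genes higher and 2 lower, and 260 and 879 of all genes. For unsorted against intact samples, removing haemoglobin genes left 1 pathway gene, 343 of all genes and 0 members higher, and averaging unsorted replicates 1 and 2 left 2 pathway genes higher. There a ratio limit of 1 left 0 pathway genes and 0 members higher, with 42 of all genes higher and 123 lower. A limit of 1 FPKM for the higher group raised the genes lower to 2352 for MACS-sorted against unsorted samples, and to 665, with 2 pathway genes, for unsorted against intact samples. With 1 sample left out, pathway genes higher ran from 3 to 5 for MACS-sorted against unsorted samples (5 without MACS-sorted replicate 4) and from 1 to 4 for unsorted against intact samples, where pathway genes lower ran from 1 to 2, members lower from 1 to 3 and all genes lower from 187 to 334. The cause was not tested. Samples with the same number did not deviate together (correlations from −0.14 to 0.07), and the replicate block gave 991 genes higher and 1516 lower for MACS-sorted against unsorted samples and 541 and 358 for unsorted against intact samples, with Tsc2 no longer called and 2 members lower in place of 3. Depth limits Igf1, Igf2 and Igfbp6 after sorting, where some values are near that of 1 fragment, so that their ratios have no firm size. The 4 samples of a group pool 1, 2 or 8 mice, so that their spreads are not of 1 kind.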
